A study of Mus musculus with 32 samples.

Results

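Interferon response genes are switched on when a cell senses interferon, the signal by which tissues warn of viruses and other intruders. The 39 genes followed here were named as a list and found on the array by the RefSeq identifier of each probe, with the brightest probe standing for a gene that had several. Of these, 38 had a probe among the 23110 genes tested, and no probe was matched to Mx1, a GTPase that blocks virus replication. Liver RNA came from 32 singly housed male wild-type C57BL/6 mice, 1 mouse per 1-colour Agilent array. In 16 mice chronic jet lag (CJ) began at 4 weeks of age, by transfer between rooms that differed by 8 h in the time of light onset. The other 16 mice stayed on a steady schedule (NS) of 12 h light and 12 h dark. Livers were collected at 30 and 12 weeks of age at ZT2, ZT10 and ZT18, where ZT, or zeitgeber time, counts the hours since the lights came on. This gave 12 groups, of 3 mice at the 2 later times and of 2 mice at ZT2. The labels do not say how many days after a room change the jet-lagged mice were killed.

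Type I and type III interferons bind their receptors and activate the kinases JAK1 and TYK2. A complex that holds STAT2 and IRF9 then binds the interferon-stimulated response element (ISRE) in promoters. Interferon gamma acts through a second element, the gamma-activated site (GAS). In an uninfected liver many of these genes keep a tonic level of expression, in hepatocytes as well as in Kupffer cells, endothelium and lymphocytes. The 12 listed hepatocyte markers were all well above background on every array. In whole tissue, fewer cells of a type and less RNA per cell cannot be told apart.

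Promoters of genes on which the results turn are shown because the ISRE is the element that the complex with STAT2 and IRF9 binds. The windows come from RefSeq (build GRCm38.p6) and run from 250 bases before to 50 bases after each gene's start. They were at hand for 31 of the 39 genes, and not for Dhx58, Zbp1, Oas2, Usp18, Mx1, Rtp4, Parp14 and Iigp1. The ISRE-like motif searched, on both strands, was GAAA, any pair of bases and GAAA again. Of the 31 genes 17 (54.8%) held it, against 3.99% of 27025 genes. A GAS-like motif, TTCNNNGAA, stood in 8 of 31 (25.8%), against 9.55% of genes, and the E-box CACGTG, to which the clock proteins CLOCK and BMAL1 bind, in 0 of 31, against 8.09% of genes. The 150 bases before the start are printed 5′ to 3′ on the gene's own strand, with ISRE-like matches in capitals. They are Rsad2 (minus strand, chr12:26456453-26456602), Ifit1 (plus, chr19:34640739-34640888), Isg15 (minus, chr4:156200819-156200968), Irgm1 (minus, chr11:48871421-48871570), Cmpk2 (plus, chr12:26469065-26469214) and Ifi47 (plus, chr11:49076437-49076586).
Rsad2: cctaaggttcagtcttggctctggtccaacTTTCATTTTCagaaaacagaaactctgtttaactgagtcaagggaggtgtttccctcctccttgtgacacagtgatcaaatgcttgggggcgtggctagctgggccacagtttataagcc
Ifit1: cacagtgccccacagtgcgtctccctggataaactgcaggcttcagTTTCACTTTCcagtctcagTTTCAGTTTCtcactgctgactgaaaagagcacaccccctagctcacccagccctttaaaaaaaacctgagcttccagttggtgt
Isg15: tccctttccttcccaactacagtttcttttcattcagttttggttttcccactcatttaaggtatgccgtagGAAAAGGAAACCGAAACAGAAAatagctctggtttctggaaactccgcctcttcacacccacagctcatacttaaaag
Irgm1: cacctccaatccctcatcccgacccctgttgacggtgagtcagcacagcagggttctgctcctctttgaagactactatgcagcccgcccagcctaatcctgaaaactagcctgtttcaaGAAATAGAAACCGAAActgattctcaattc
Cmpk2: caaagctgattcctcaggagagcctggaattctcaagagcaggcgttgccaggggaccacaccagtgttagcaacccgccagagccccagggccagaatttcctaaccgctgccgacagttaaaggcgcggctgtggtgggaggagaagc
Ifi47: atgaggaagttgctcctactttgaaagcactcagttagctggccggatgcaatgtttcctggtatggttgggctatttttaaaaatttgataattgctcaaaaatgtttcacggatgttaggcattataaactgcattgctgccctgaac
Isg15 held 3 overlapping matches, whose first bases lay at -78, -72 and -66 from the start, and Irgm1 had 2 at -30 and -24. Ifit1 held 2 at -104 and -85, and Rsad2 had 1 at -120. Cmpk2 and Ifi47 had none of the 3 motifs in this window, which says only that these letters are not in it.

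All levels below are log2 values relative to the 75th percentile of the same array, so that 0 is that percentile. Of the 38 genes, 37 were well above background on all 32 arrays. Tgtp1, a GTPase of the immunity-related family, was so on 13 of 32, so no fold is given for it. The genes moved more between groups than a typical gene. The median distance between the highest and the lowest of the 12 group means was 0.83 for the 38 genes, against 0.62 for all genes, and it was over 1 for 10 of them. In the tests described below, 19 of the 38 passed in at least 1 of 17 comparisons, and 19 in none. A gene passed if its adjusted p was under 0.05 in a limma fit across all 23110 genes. The share of all genes that passed in at least 1 comparison was not counted. Single comparisons passed up to 17.5% of all genes.

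**Figure D1:**
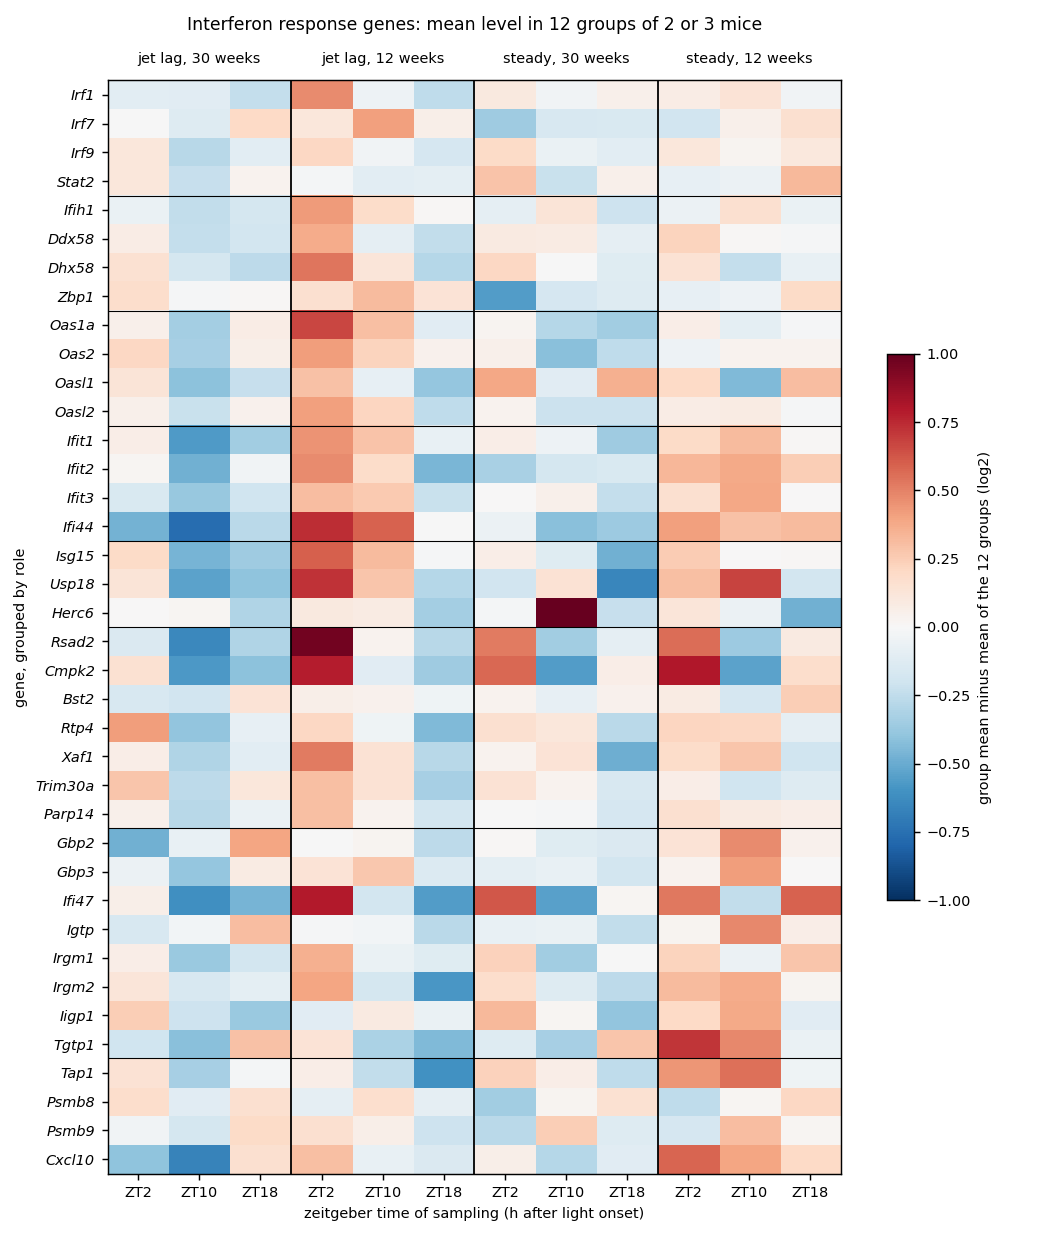
Mean level of the 38 genes (rows, ordered by role) in the 12 groups (columns) as a log2 difference from the gene's own mean over the groups, from blue (lower) to red (higher). The jet-lagged ZT2 column at 12 weeks is the reddest, and Herc6 stands out in steady mice at ZT10 and 30 weeks, where 1 of 3 mice was at 1.34.

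Single mice set part of this picture. Averaged over the 38 genes, a mouse lay between -0.38 and 0.47 from the mean of all mice. Lowest were jet-lagged mouse 2 of ZT10 and steady mouse 1 of ZT18, both at 30 weeks and at -0.38. They had the lowest level of all 32 mice for 9 and 8 genes. Jet-lagged mouse 2 of ZT18 at 12 weeks was at -0.35 and lowest for 5. At 12 weeks, mouse 2 of the jet-lagged animals killed at ZT2 was at 0.47, and it had the highest level of all 32 mice for 16 of the 38 genes. Mouse 1 of the same group was at 0.24 and highest for 1 gene. On the array of mouse 2, 43.4% of probes were well above background and the 75th percentile of the signal was 128, in each case the lowest of the 32 arrays (range 43.4% to 58.1% and 128 to 302.5). Values without this mouse stand beside the results it changes. Herc6, a ligase that attaches the ISG15 protein in mouse, stood at -2.34, 1.34 and -2.94 in the 3 steady mice at ZT10 and 30 weeks, and between -3.14 and -2.14 in the other 29 mice. The mouse at 1.34 was 1 of 10 whose mean pancreatic acinar marker level was over 2 log2 units above that of the median array. The animal at 0.24, mouse 1 of the ZT2 pair above, was also among these 10.

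**Figure D2:**
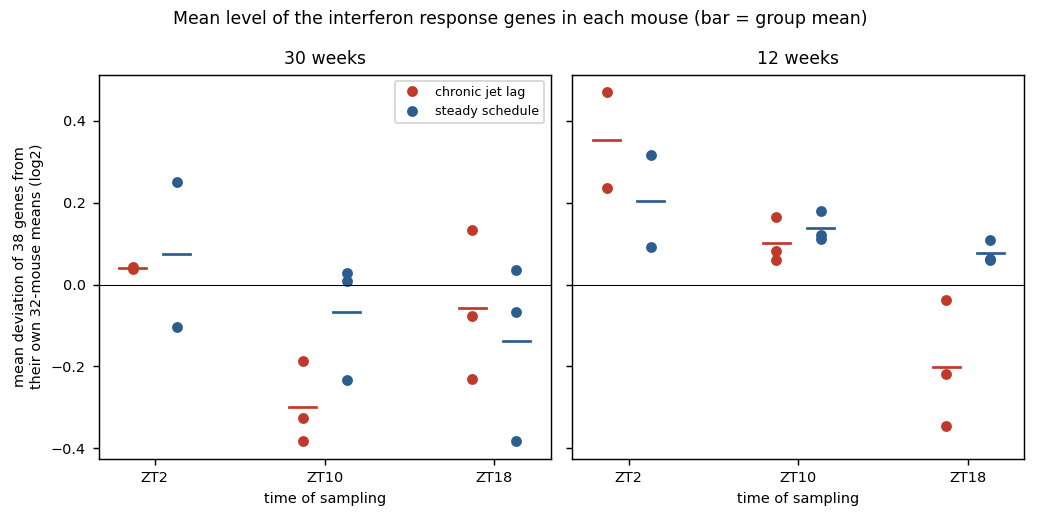
Each point is 1 mouse: the mean over the 38 genes of the log2 difference from the gene's mean over 32 mice, by time of sampling, with bars at the group means. Points run from -0.38 to 0.47, and both jet-lagged mice at ZT2 and 12 weeks lie at 0.24 or above.

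The first question was how the genes varied over the day. Of 38 genes 1 passed the test of time of day in jet-lagged mice at 30 weeks, against 3.71% of all genes, and at 12 weeks 9 of 38 passed, against 5.67%. In steady mice 5 of 38 passed at 30 weeks, against 11.2% of all genes, and 7 of 38 at 12 weeks, against 17.5%. In all but the jet-lagged mice at 12 weeks the share was close to that of all genes or below it. The median range over the 3 times was 0.45 and 0.57 in jet-lagged mice at 30 and 12 weeks and 0.38 and 0.36 in steady mice. For all genes it was 0.27 and 0.29 in jet-lagged mice and 0.31 and 0.34 in steady mice.

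Among the antiviral effectors, Rsad2 and Cmpk2 passed in jet-lagged mice at 12 weeks and in steady mice at both ages. Neither passed in jet-lagged mice at 30 weeks. The 2 genes lie on opposite strands of chromosome 12 and point away from each other. RSAD2, or viperin, makes a nucleotide analogue that ends RNA synthesis, and CMPK2 is a mitochondrial kinase of its nucleotide precursors. Cmpk2 in jet-lagged mice at 30 weeks stood at -0.81 and -0.58 at ZT2, at -1.45, -1.67 and -1.14 at ZT10, and at -1.17, -1.02 and -1.54 at ZT18. At 12 weeks the jet-lagged mice were at -0.29 and 0.18 at ZT2, at -1.10, -1.01 and -0.75 at ZT10, and at -0.98, -1.51 and -1.10 at ZT18. Both ZT2 mice were above every mouse of the later times in each of these sets. Steady mice at 30 weeks had -0.03 and -0.51 at ZT2, -1.19, -1.58 and -1.43 at ZT10, and -0.98, -0.64 and -0.72 at ZT18. Those at 12 weeks had -0.20 and 0.12, then -1.44, -1.37 and -1.32, then -0.57, -0.67 and -0.75. In steady mice of each age the 3 times did not overlap, with the ZT10 mice lowest and the ZT18 mice between. The fitted range was 0.74 (adjusted p = 0.0576) and 1.1 (adjusted p = 0.0029) in jet-lagged mice at 30 and 12 weeks, and 1.09 (adjusted p = 0.0016) and 1.31 (adjusted p = 0.00023) in steady mice. On a second Cmpk2 probe the range of the measured means at 12 weeks was 0.99 in jet-lagged and 1.28 in steady mice, against 1.14 and 1.33 on the first.

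Rsad2 had its highest mean at ZT2 in every set. Jet-lagged mice at 30 weeks stood at -0.31 and 0.36 at ZT2, at -0.47, -0.60 and -0.36 at ZT10 and at 0.11, -0.17 and -0.33 at ZT18. Those at 12 weeks were at 0.96 and 1.31, then at 0.21, 0.05 and 0.35, then at 0.05, -0.28 and -0.10. The 12-week jet-lagged mice at ZT2 did not overlap with those of the later times, whereas the 30-week ones did. In steady mice the ZT2 values were 0.98 and 0.39 at 30 weeks and 0.59 and 0.86 at 12 weeks. The steady ZT10 values were -0.06, -0.42 and -0.05 at 30 weeks and -0.38, -0.06 and -0.13 at 12 weeks, and those at ZT18 were -0.16, 0.12 and 0.29, and 0.28, 0.40 and 0.10. ZT2 was the highest time in steady mice of each age, with no overlap. The fitted range was 1.17 in jet-lagged mice at 12 weeks (adjusted p = 0.0024), and 0.80 (adjusted p = 0.0307) and 0.93 (adjusted p = 0.0082) in steady mice at 30 and 12 weeks.

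**Figure D3:**
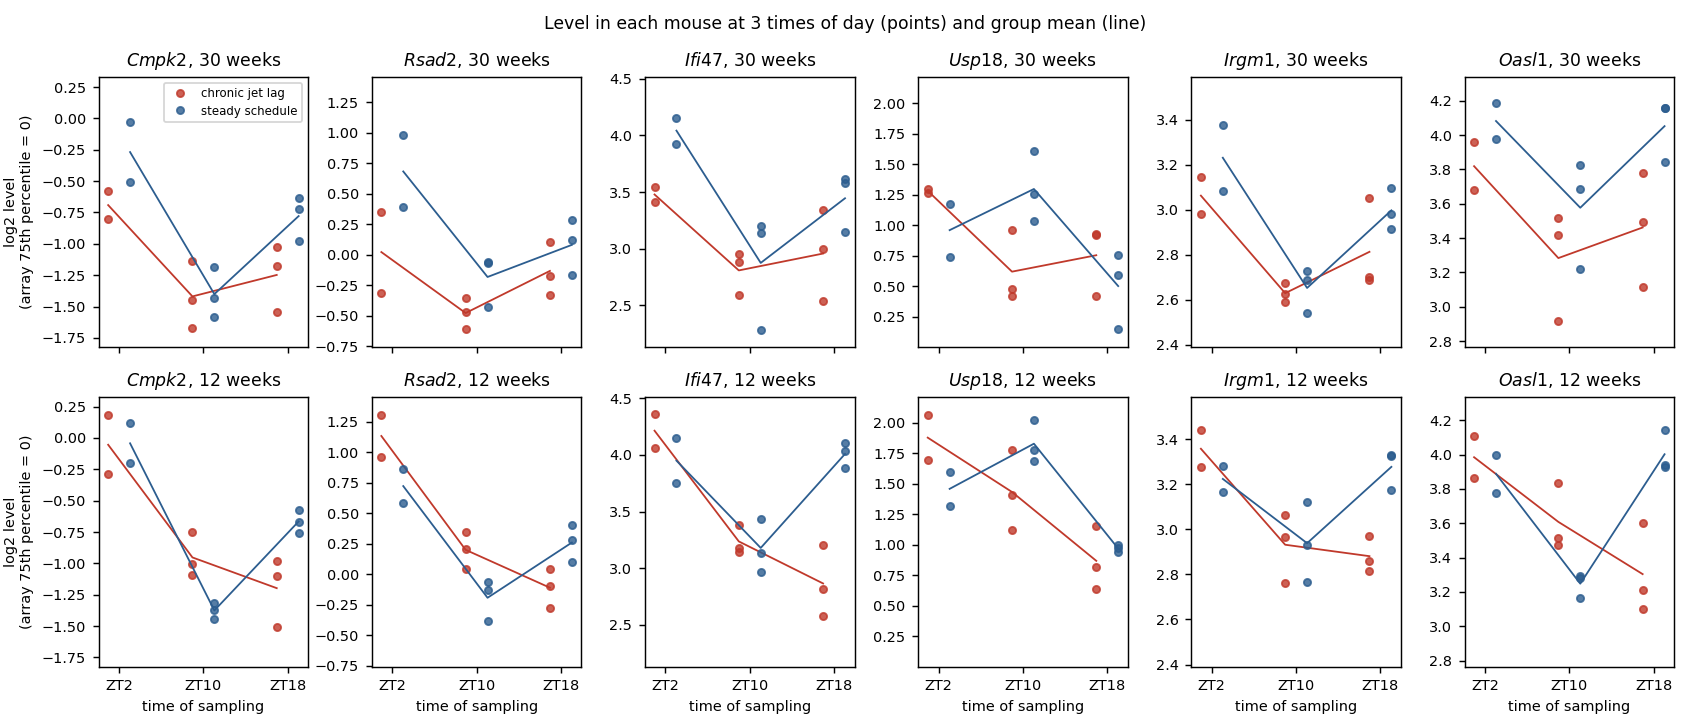
Log2 level (y axis, array 75th percentile = 0) of 6 genes at 3 times of day in each mouse (points), with lines through the group means, at 30 weeks (upper row) and 12 weeks (lower row), with jet-lagged mice in red on the left and steady mice in blue on the right at each time. Cmpk2 and Ifi47 have lower means at ZT10 than at ZT2 in every set, and at 12 weeks the steady ZT18 values of Ifi47, between 3.88 and 4.11, lie above the jet-lagged ones.

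The interferon-inducible GTPases act on the membranes that enclose intracellular pathogens. Of the 8 with a probe, 3 passed in jet-lagged mice at 12 weeks, Ifi47 (range 1.33, adjusted p = 0.0020), Irgm2 (0.98, adjusted p = 0.0073) and Irgm1 (0.48, adjusted p = 0.0285), and 0 at 30 weeks. In steady mice 2 passed at each age, Ifi47 with 1.06 at 30 weeks (adjusted p = 0.0057) and 0.80 at 12 weeks (adjusted p = 0.0111), and Irgm1 with 0.50 (adjusted p = 0.0160) and 0.35 (adjusted p = 0.0462). Ifi47, which encodes the GTPase IRG-47, was lowest at ZT10 in steady mice. Its values in jet-lagged mice at 30 weeks were 3.41 and 3.54 at ZT2, 2.95, 2.59 and 2.88 at ZT10, and 3.34, 3.0 and 2.54 at ZT18. At 12 weeks the jet-lagged values were 4.06 and 4.36, then 3.18, 3.38 and 3.15, then 3.20, 2.58 and 2.82. Jet-lagged mice at ZT18 stayed near or below their ZT10 level at 12 weeks. Steady mice at 30 weeks had 4.16 and 3.93 at ZT2, 3.20, 3.14 and 2.28 at ZT10, and 3.14, 3.61 and 3.58 at ZT18. The steady values at 12 weeks were 4.15 and 3.75, then 3.43, 3.14 and 2.97, then 3.88, 4.11 and 4.04. The steady ZT18 mice at 12 weeks lay as high as the ZT2 mice. Igtp, Iigp1, Gbp2, Gbp3 and Tgtp1 passed in none of the 4 sets. When 1 mouse was left out, the calls of Cmpk2 in steady mice of each age and of Ifi47 in steady mice at 30 weeks held in all 32 fits, and that of Irgm1 in steady mice at 12 weeks held in 12. Rsad2 in steady mice at 30 weeks was lost without any 1 of 3 mice, with a range of 0.52 without mouse 1 of ZT2.

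Usp18 takes ISG15 off its targets and damps the receptor for type I interferon. It passed in jet-lagged mice at 12 weeks (range 0.93, adjusted p = 0.0462) and in steady mice at 30 weeks (0.78, adjusted p = 0.0491) and at 12 weeks (0.90, adjusted p = 0.0142). Jet-lagged mice at 12 weeks had their highest mean at ZT2, with 1.69 and 2.06, against 1.77, 1.12 and 1.40 at ZT10 and 1.15, 0.64 and 0.81 at ZT18. Steady mice of that age had it at ZT10, with 1.32 and 1.60 at ZT2, 1.68, 2.03 and 1.78 at ZT10, and 1.00, 0.97 and 0.94 at ZT18. The 3 steady times did not overlap, while jet-lagged ZT2 and ZT10 did. At 30 weeks the values were 1.26 and 1.30, then 0.96, 0.42 and 0.48, then 0.92, 0.93 and 0.42 in jet-lagged mice, and 1.18 and 0.74, then 1.61, 1.25 and 1.03, then 0.15, 0.76 and 0.60 in steady mice. Usp18 passed in 13 of 32 fits that left out 1 mouse in jet-lagged mice at 12 weeks, and in 11 and 30 in steady mice at 30 and 12 weeks. A difference in daily course between the schedules was tested for all genes (below), and Usp18 did not pass. Xaf1, which promotes cell death, passed at 12 weeks in jet-lagged mice (0.80, highest at ZT2, adjusted p = 0.0264) and in steady mice (0.56, highest at ZT10, adjusted p = 0.0368). Oasl1, a relative of the oligoadenylate synthetases that in mouse holds back translation of Irf7, passed in steady mice at 12 weeks (0.70, highest at ZT18, adjusted p = 0.0210).

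Of 4 sensors of foreign nucleic acid 2 also passed in jet-lagged mice at 12 weeks, Dhx58 (0.83, adjusted p = 0.0122) and Ddx58 (0.59, adjusted p = 0.0115), which encode the RNA helicases LGP2 and RIG-I. The gene that passed in jet-lagged mice at 30 weeks was Rtp4, a negative regulator of RIG-I-like signalling in mouse (0.81, adjusted p = 0.0312). Rtp4 stood at 3.53 and 3.53 at ZT2, at 2.81, 2.56 and 2.77 at ZT10 and at 3.10, 3.02 and 2.96 at ZT18, so that the 3 times did not overlap. It passed in 27 of 32 fits that left out 1 mouse. Not past the test there were Ifi47 (0.85, adjusted p = 0.0587) and Cxcl10 (0.80, adjusted p = 0.221). The 4 transcription factors (Irf1, Irf7, Irf9 and Stat2), the 4 genes of the IFIT group, and Tap1, Psmb8, Psmb9 and Cxcl10 passed in 0 of the 4 sets.

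Most of the 38 genes had their highest group mean at ZT2 in jet-lagged mice, and at 30 weeks in steady mice too. Averaged over the 38 genes, the 30-week jet-lagged mice at ZT2 were both at 0.04, below mouse 1 of ZT18 at 0.13. By fitted group means, 29 of 38 genes were highest at ZT2 in jet-lagged mice at 30 weeks, against 36.9% of all genes, and 31 of 38 at 12 weeks, against 39.9%. The lowest time was ZT10 at 30 weeks for 31 genes, against 27.5% of all genes, and ZT18 at 12 weeks for 33, against 31.6%. All these genes were measured in the same few mice. In steady mice 21 of 38 were highest at ZT2 at 30 weeks, against 30.4% of all genes, and 12 of 38 at 12 weeks, against 36.8%. All 9 genes that passed in jet-lagged mice at 12 weeks were highest at ZT2. Without mouse 2, which leaves a single mouse at ZT2, 0 of the 9 passed, while the ranges lay between 0.42 (Ddx58) and 1.23 (Ifi47, adjusted p = 0.0545). The range of Rsad2 was then 0.98 and that of Cmpk2 was 0.92. By measured means, ZT2 was highest for 32 genes with both mice (41.3% of all genes), for 24 with mouse 1 alone (38.3%) and for 35 with mouse 2 alone (46%). In the same groups the summed neutrophil markers (6 of 10 measured) lay at 0.23, 0.09 and -0.39 at ZT2, ZT10 and ZT18 as mean log2 deviations, and the skeletal muscle markers (11 of 12) at -1.67, 1.56 and -0.82. With pancreatic acinar and muscle markers as covariates 9 genes passed, and with the slide as a fixed block 3 passed. The acinar markers, as mean log2 deviations, lay at 2.27 in mouse 1 of ZT2, an acinar-rich array, and at -1.57 in mouse 2. They lay at -1.36, 4.65 and 4.62 at ZT10, and at -0.83, 2.30 and -1.45 at ZT18. Without the acinar-rich arrays a single mouse is left at ZT2 and at ZT10. The part of neutrophils was not tested.

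The next question was whether the daily course differed between the schedules. At 30 weeks 0 of 38 genes passed the test of schedule by time of day, against 1.86% of all genes (7 at an unadjusted p under 0.05, against 13.6%). At 12 weeks 1 of 38 passed, against 1.93%. This was Ifi47, with a jet-lagged minus steady difference of 0.24 at ZT2 and -1.13 at ZT18, a span of 1.37 (adjusted p = 0.0223). The call was lost without any 1 of 3 mice (highest adjusted p 0.0809), mouse 3 of the steady ZT10 group and mouse 1 of the steady and mouse 2 of the jet-lagged ZT18 group. With the acinar and muscle covariates the span was 1.28 (adjusted p = 0.272). Next in size at 12 weeks were Oasl1 (1.02, adjusted p = 0.0950), Cmpk2 (0.84, adjusted p = 0.172) and Usp18 (0.81, adjusted p = 0.403). At 30 weeks they were Herc6 (1.41, adjusted p = 0.715), which rests on the 1 mouse named above, Usp18 (1.00, adjusted p = 0.170), Gbp2 (0.85, adjusted p = 0.592) and Tap1 (0.83, adjusted p = 0.363).

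At single times the clearest difference between schedules was that of Ifi47 at ZT18. At 12 weeks jet-lagged mice had a 2.19-fold lower level than steady mice (log2 change -1.13 ± 0.19 SE, 95% interval -1.53 to -0.73, adjusted p = 0.0019). The 3 jet-lagged mice, at 3.20, 2.58 and 2.82, lay below the 3 steady mice, at 3.88, 4.11 and 4.04. It passed in all 32 fits that left out 1 mouse. Within slide 7, the 1 slide that held a mouse of each schedule at this time and age, the difference was -1.30. The jet-lagged mouse of that pair, at 2.58, was the lowest of its group, and both mice are also in the fit. With acinar and muscle covariates the fitted difference was -1.06 (adjusted p = 0.0259). Without the 10 acinar-rich arrays, 3 of which were in these 2 groups, it was -0.94 (adjusted p = 0.263). Irgm1, which regulates the other GTPases of its family, was lower by a smaller amount (-0.40 ± 0.11, adjusted p = 0.0447), with 2.97, 2.81 and 2.86 in jet-lagged and 3.17, 3.33 and 3.33 in steady mice. These were 2 of 38 genes, against 2.88% of all genes in either direction and 1.87% lower. Irgm1 passed in 12 of the 32 fits. Oasl1 was at -0.67 (adjusted p = 0.0514), with 3.60, 3.10 and 3.21 in jet-lagged and 3.92, 4.14 and 3.94 in steady mice, and Tap1 at -0.61 (adjusted p = 0.154).

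Most of the 38 genes leaned the same way in that comparison. The estimate at ZT18 and 12 weeks was below 0 for 34 of 38 (45.2% of all genes), with a median of -0.21, against 0.03 for all genes, and within slide 7 it was below 0 for 35 of 38. These counts are over genes measured in the same few mice, not over mice. Averaged over the 38 genes, the jet-lagged mice were at -0.04, -0.35 and -0.22 and the steady mice at 0.11, 0.06 and 0.06. The mouse at -0.35 was the jet-lagged one on slide 7. In the jet-lagged and steady groups at that time the summed MHC class II markers (9 of 10 measured) lay at -0.57 and -0.04, and the muscle markers at -0.82 and 2.17. The part of antigen-presenting cells was not tested. At ZT2 and 12 weeks 0 of 38 passed, against 0.247% of all genes (2 at an unadjusted p under 0.05, against 11.5%). The largest estimates there were those of Oas1a (0.58 ± 0.22, adjusted p = 0.297), Ifih1 (0.46 ± 0.15, adjusted p = 0.235), Oas2 (0.44 ± 0.28, adjusted p = 0.569) and Tap1 (-0.39 ± 0.28, adjusted p = 0.623). At ZT10 and 12 weeks 0 of 38 passed, against 1.81% (8 at an unadjusted p under 0.05, against 16.8%). Tap1 was at -0.74 ± 0.22 (adjusted p = 0.0827), Irgm2 at -0.58 ± 0.17 (adjusted p = 0.0699) and Igtp at -0.56 ± 0.19 (adjusted p = 0.136).

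At ZT2 and 30 weeks 1 of 38 passed, against 1.39% of all genes. This was Zbp1, which binds Z-form nucleic acid and triggers necroptosis, at 2.10 and 1.28 in jet-lagged mice and 0.94 and 0.97 in steady mice (0.85 ± 0.22, adjusted p = 0.04996, just under the threshold). The pairs did not overlap, but the jet-lagged mice were far apart. The estimate was 0.46 without jet-lagged mouse 1 and 1.26 without mouse 2, and Zbp1 passed in 5 of the 32 fits. A second Zbp1 probe gave 0.74 by measured means, as did the first. In the same groups the summed acute phase genes (21 of 22 measured) lay at 1.02 in jet-lagged and -0.25 in steady mice, and the 12 hepatocyte markers at -0.37 and -0.04. Of the acute phase genes, 11 were higher past the test, with 5.70 ± 0.87 for Saa1 (adjusted p = 0.0012). The part of the acute phase response in the level of Zbp1 was not tested. Not past the test at this time were Rsad2 (-0.62 ± 0.23, adjusted p = 0.209), Psmb8 (0.53 ± 0.16, adjusted p = 0.101) and Irf7 (0.44 ± 0.17, adjusted p = 0.248).

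At ZT10 and 30 weeks 0 of 38 passed, against 0.679% of all genes (10 at an unadjusted p under 0.05, against 11.8%), and the estimate was below 0 for 32 of 38, against 52.9% of all genes (median -0.22, against -0.01). Within slide 3, the difference of the single pair was below 0 for 24 of 38, with a median of -0.06. Averaged over the 38 genes, the jet-lagged mice were at -0.19, -0.38 and -0.33 and the steady mice at 0.03, 0.01 and -0.23. Usp18 was at -0.65 ± 0.21 (adjusted p = 0.164), Tap1 at -0.54 ± 0.22 (adjusted p = 0.317) and Rtp4 at -0.51 ± 0.16 (adjusted p = 0.153). Herc6 was at -1.21 ± 0.59 (adjusted p = 0.434), and at 0.33 without the 1 steady mouse named above. At ZT18, 1 of 38 passed, against 3.52%. This was Oasl1, 1.59-fold lower in jet-lagged mice (-0.67 ± 0.19, adjusted p = 0.0460), with 3.49, 3.78 and 3.11 in jet-lagged and 3.84, 4.16 and 4.15 in steady mice, which did not overlap. It passed in 13 of the 32 fits. Within slide 4, the difference of the single pair was -1.04. The jet-lagged mouse of that pair was the lowest of its group for Oasl1, at 3.11, and for Ifi47, at 2.54. At 12 weeks the estimate of Oasl1 at this time had the same size and an adjusted p of 0.0514. A difference between the ages at single times was not tested. Ifi47 again had a lower estimate (-0.61 ± 0.19, adjusted p = 0.0850; -1.08 within slide 4). Cmpk2 was at -0.56 ± 0.17 (adjusted p = 0.0764) and Igtp at 0.52 ± 0.19 (adjusted p = 0.149).

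**Figure D4:**
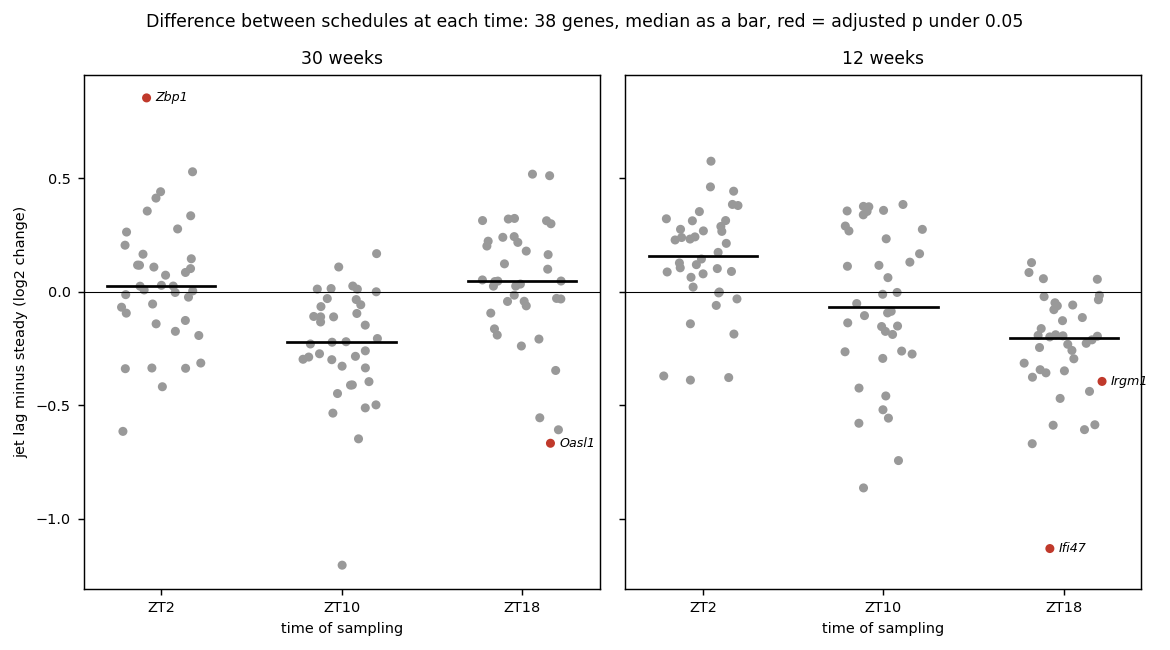
Jet-lagged minus steady log2 change of the 38 genes (points, spread sideways at random) at each time of day at 30 weeks (left) and 12 weeks (right), with the median as a bar and genes past the test in red. Ifi47 at ZT18 and 12 weeks is the lowest of the red points, at -1.13, and the lowest grey point at ZT10 and 30 weeks is Herc6, at -1.21.

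Averaged over the 3 times, few genes differed between schedules. At 30 weeks 3 of 38 passed, against 5.99% of all genes. Rsad2 (-0.38 ± 0.11, adjusted p = 0.0336) and Oasl1 (-0.37 ± 0.11, adjusted p = 0.0449) were lower in jet-lagged mice, and Zbp1 was higher (0.36 ± 0.10, adjusted p = 0.0406). The mean of Rsad2 was -0.22 ± 0.31 under jet lag and 0.13 ± 0.43 on the steady schedule, and that of Zbp1 was 1.56 ± 0.26 under jet lag and 1.27 ± 0.26 on the steady schedule (SD, n = 8 each). Spread over the 3 times is part of these SDs. The 3 calls held in 23, 13 and 20 of the 32 fits. Without jet-lagged mouse 1 of ZT2 the estimate of Zbp1 was 0.22 and did not pass, and none of the 38 passed without steady mouse 1 of ZT2. At 12 weeks 2 of 38 passed, against 4.36% of all genes in either direction and 2.41% lower, and both were lower in jet-lagged mice.

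Tap1, a subunit of the transporter that carries peptides to MHC class I, was lower at 12 weeks (-0.58 ± 0.13, adjusted p = 0.0143). In jet-lagged mice it stood at -0.01 and -0.58 at ZT2, at -0.18, -0.81 and -0.83 at ZT10, and at -0.57, -1.47 and -0.86 at ZT18. In steady mice it was at -0.04 and 0.21, then at 0.19, 0.02 and 0.36, then at -0.49, -0.54 and -0.18. The schedules did not overlap at ZT10 and ZT18. The call was lost without mouse 2 of either ZT2 group, and within slides 7 and 8 the differences were -0.98 and -0.54. Irgm2 was 1.28-fold lower (-0.36 ± 0.10, adjusted p = 0.0378), and passed in 20 of the 32 fits. Jet-lagged mice had 3.50 and 3.84 at ZT2, 3.13, 3.16 and 3.01 at ZT10 and 2.81, 2.60 and 2.65 at ZT18. Steady mice had 3.58 and 3.60, then 3.76, 3.70 and 3.48, then 3.27, 3.37 and 3.27, again with no overlap at ZT10 and ZT18. The immunoproteasome subunits Psmb8 and Psmb9, which cut the peptides that TAP1 carries, did not pass at either age. Neither did Cxcl10, a chemokine for T cells (-0.35 ± 0.16 at 12 weeks, adjusted p = 0.208).

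The last question was how the genes changed between 12 and 30 weeks. Jet-lagged mice killed at 30 weeks had also been under jet lag for longer, so age and time under jet lag cannot be told apart in them. In jet-lagged mice 10 of 38 genes passed and all 10 were lower at 30 weeks, against 4.98% of all genes in either direction and 2.73% lower. The median change of the 38 genes was -0.16, against -0.03 for all genes. In steady mice 0 of 38 passed, against 0.861% of all genes, although 17 of 38 had an unadjusted p under 0.05, against 9.73%. The median change there was -0.19, against 0.01, and the estimate was below 0 for 34 of 38 genes, against 47.3% of all genes. In jet-lagged mice it was below 0 for 29 of 38, against 57.9%. The fall in jet-lagged mice was not shown to differ from that in steady mice. In the test of schedule by age 0 of 38 passed, against 0.00865% of all genes (6 at an unadjusted p under 0.05, against 12.7%), with the largest estimates for Rsad2 (-0.53 ± 0.15, adjusted p = 0.166), Tap1 (0.51 ± 0.18, adjusted p = 0.255) and Igtp (0.47 ± 0.16, adjusted p = 0.230) among those measured on all arrays.

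The IFIT group made up 3 of the 10. IFIT proteins bind foreign RNA, and Ifi44 encodes an antiviral protein of less known action. Ifi44 was 1.90-fold lower in jet-lagged mice at 30 weeks (-0.93 ± 0.16, 95% interval -1.25 to -0.60, adjusted p = 0.0011). At 30 weeks it stood at -2.09 and -2.13 at ZT2, at -2.29, -2.44 and -2.48 at ZT10, and at -1.55, -2.01 and -2.17 at ZT18. At 12 weeks it was at -1.23 and -0.59, then at -0.74, -1.11 and -1.30, then at -1.55, -1.79 and -1.60. The ages did not overlap at ZT2 and ZT10 and did at ZT18. Ifit1 (-0.50 ± 0.11, adjusted p = 0.0126) and Ifit3 (-0.37 ± 0.10, adjusted p = 0.0264) fell too, and Ifit2 had -0.23 ± 0.15 (adjusted p = 0.387). In steady mice Ifi44 was at -1.56 and -1.85, then -1.34, -2.05 and -2.80, then -2.30, -2.12 and -1.58 at 30 weeks, and at -1.35 and -1.10, then -1.41, -1.30 and -1.32, then -1.05, -1.34 and -1.58 at 12 weeks. Its change there was -0.63 ± 0.16 (adjusted p = 0.0557), that of Ifit2 was -0.55 ± 0.15 (adjusted p = 0.0950) and that of Cxcl10 was -0.49 ± 0.16 (adjusted p = 0.216).

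In the ISG15 system, Isg15, a ubiquitin-like tag for proteins, was 1.42-fold lower in jet-lagged mice at 30 weeks (-0.50 ± 0.11, adjusted p = 0.0077). Its values at 30 weeks were 3.65 and 3.52 at ZT2, 3.14, 2.73 and 2.90 at ZT10 and 3.20, 3.12 and 2.78 at ZT18. At 12 weeks they were 3.77 and 4.21, then 3.71, 3.54 and 3.87, then 3.55, 3.32 and 3.25, so the ages overlapped at none of the 3 times. A second Isg15 probe gave -0.43 by measured means, against -0.51 on the first. Usp18 fell by the same amount (-0.50 ± 0.12, adjusted p = 0.0191), and in steady mice its change was also -0.50 ± 0.12 (adjusted p = 0.0557). Rsad2 (-0.60 ± 0.11, adjusted p = 0.0019) and Cmpk2 (-0.38 ± 0.10, adjusted p = 0.0321) fell in jet-lagged mice, against -0.07 ± 0.11 for Rsad2 in steady mice (adjusted p = 0.908). The other 3 were Ifih1, the RNA sensor MDA5 (-0.37 ± 0.07, adjusted p = 0.0045), Oas1a, which makes the messenger that activates RNase L (-0.35 ± 0.10, adjusted p = 0.0496), and Irgm1 (-0.22 ± 0.06, adjusted p = 0.0424). A second Irgm1 probe gave -0.05 by measured means, against -0.22 on the first. Of these 10 genes 9 had a promoter window, and 7 of the 9 held an ISRE-like match, beside 17 of all 31 with a window. Among the genes that passed for time of day the tally was 4 of 7 in jet-lagged mice at 12 weeks, and 2 of 4 at 30 weeks and 2 of 6 at 12 weeks in steady mice.

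**Figure D5:**
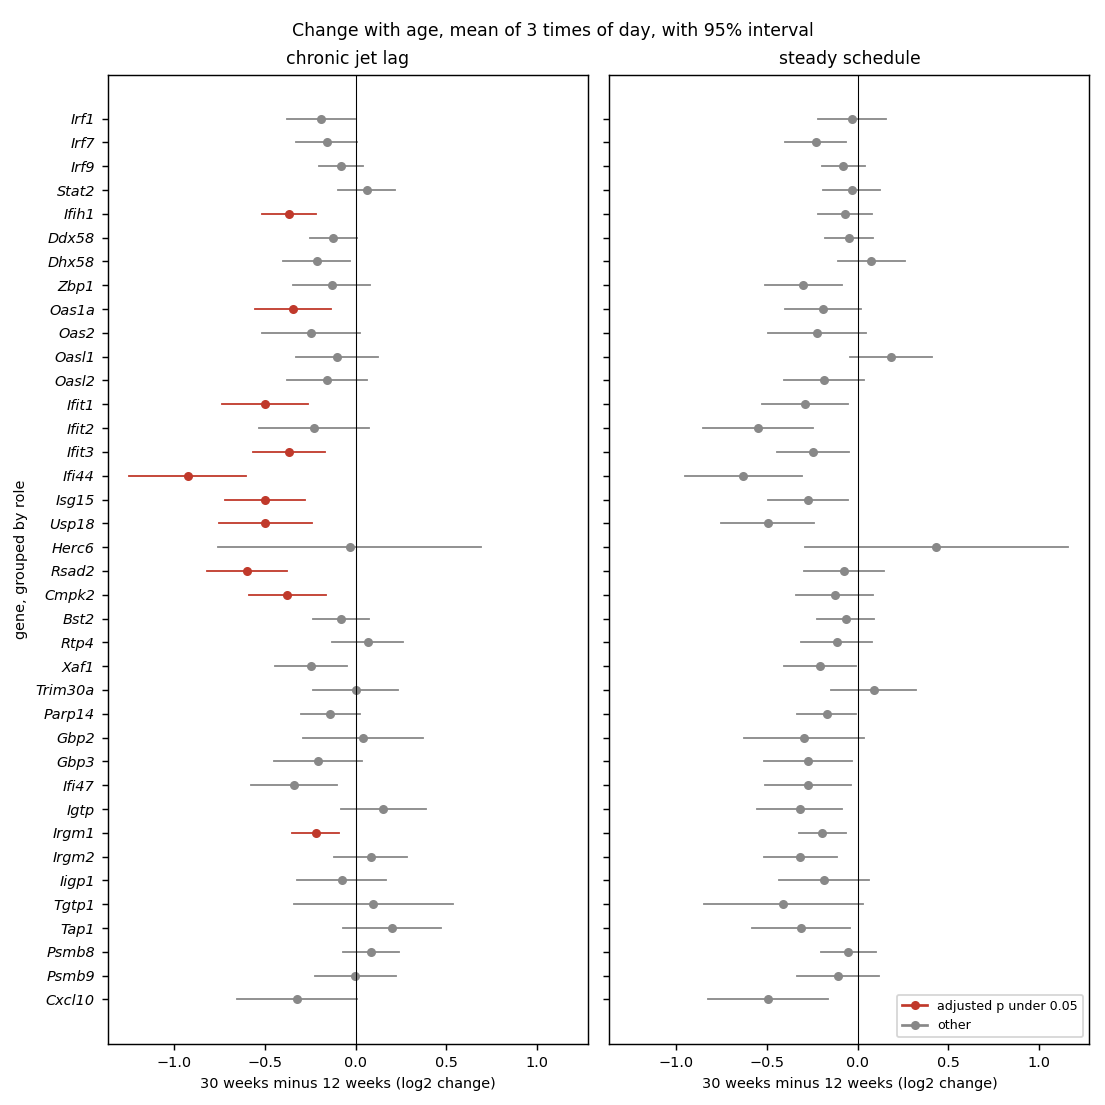
Log2 change between 12 and 30 weeks (30 minus 12 weeks, mean of the 3 times) of each of the 38 genes with its unadjusted 95% interval, in jet-lagged mice (left) and steady mice (right), with genes past the test in red. Ifi44 is the lowest in each panel, at -0.93 in jet-lagged and -0.63 in steady mice, and Herc6 has the widest intervals.

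Of the 10 calls, 5 held in every fit that left out 1 mouse, namely Ifi44, Rsad2, Isg15, Ifit1 and Ifih1. Without jet-lagged mouse 2 of ZT2 at 12 weeks 5 genes passed, the fewest of the 32 fits, and without all ZT2 mice 4 passed. With the slide as a fixed block 5 passed. Without the 10 acinar-rich arrays 0 passed, with fewer mice in the fit, and the changes of the 10 genes then ran from -1.03 (Ifi44) to -0.23 (Irgm1), all below 0. With acinar and muscle covariates 10 passed. By fitted means, 11 of 38 genes were lower at 30 weeks at all 3 times in jet-lagged mice, against 21.1% of all genes, and 25 of 38 in steady mice, against 12.1%. By measured means the jet-lagged count was 8 of 38 with mouse 2, against 17.3% of all genes, and 8 without it, against 17.2%. These counts were close to the share of all genes. No slide held mice of both ages at the same time and schedule, so no within-slide value could be had. In jet-lagged mice the summed Kupffer cell markers (11 of 12 measured) lay at 0.20, 0.01 and 0.46 at ZT2, ZT10 and ZT18 at 30 weeks and at 0.18, 0.03 and -0.14 at 12 weeks. Those of plasmacytoid dendritic cells (8 of 8, of which Bst2 is also 1 of the 39) lay at -0.41, 0.10 and 0.36 at 30 weeks and at -0.08, 0.33 and -0.19 at 12 weeks. Neither set was lower at 30 weeks at all 3 times. Markers of B and plasma cells (8 of 8) were higher at all 3, at -0.02, 0.29 and -0.04 at 30 weeks and -0.07, 0.04 and -0.49 at 12 weeks, and Jchain of that set passed (1.23 ± 0.22, adjusted p = 0.0021). Of 21 acute phase genes 3 were higher at 30 weeks past the test, Orm3 (0.89 ± 0.22, adjusted p = 0.0219), Mt2 (0.87 ± 0.25, adjusted p = 0.0408) and Mt1 (0.82 ± 0.18, adjusted p = 0.0111), and Crp was lower (-0.28 ± 0.07, adjusted p = 0.0283). Of 12 hepatocyte markers 11 had an estimate below 0, and Tat passed (-0.36 ± 0.09, adjusted p = 0.0254). The part of these markers in the change was not tested.

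Upstream of these genes, of 13 interferon genes 9 were tested, of which 2 were well above background on all arrays. None of the 9 passed for a difference between schedules or ages. For time of day 1 passed in jet-lagged mice at 30 weeks (Ifna2) and 0 at 12 weeks, and in steady mice 0 and 2 (Ifna1 and Ifna5). Ifna5 also passed for schedule by time of day at 12 weeks (span 2.09, adjusted p = 0.0438), but the alpha interferon genes are close copies of each other that a probe may not tell apart. Of 10 receptor and JAK-STAT genes 9 were tested. For time of day 0 and 1 of them passed in jet-lagged mice at 30 and 12 weeks (the kinase gene Jak2), and 2 and 1 in steady mice. Ifnar1, a chain of the type I receptor, passed in steady mice at 30 weeks (range 0.66, adjusted p = 0.00091), as did Ifngr2 (0.64, adjusted p = 0.00025), each highest at ZT10. Tyk2, a receptor kinase, was lower in jet-lagged mice over the mean of the 3 times at 12 weeks (-0.51 ± 0.13, adjusted p = 0.0314). Ifngr2, a chain of the interferon gamma receptor, was higher in jet-lagged mice at ZT18 and 30 weeks (0.40 ± 0.09, adjusted p = 0.0190), and passed the test of schedule by time of day at that age (span 0.72, adjusted p = 0.0105). Of 18 tested genes of nucleic acid sensing, 1 passed for time of day in jet-lagged mice at 30 weeks (Mavs) and 0 at 12 weeks. In steady mice 1 passed at 30 weeks (Irf2) and 5 at 12 weeks (Irf2, Trim25, Mavs, Myd88 and Sting1), where 17.5% of all genes did. Tbk1, a kinase that activates IRF3, was lower in jet-lagged mice at 12 weeks (-0.43 ± 0.12, adjusted p = 0.0466), and Ticam1, the adaptor TRIF, at 30 weeks (-0.26 ± 0.07, adjusted p = 0.0364).

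Among 61 further interferon-induced genes, 50 were tested. In jet-lagged mice 2 of the 50 passed the test of time of day at 30 weeks, against 3.71% of all genes, and 3 at 12 weeks, against 5.67%. In steady mice 4 of 50 passed at 30 weeks, against 11.2%, and 7 at 12 weeks, against 17.5%, so that no share stood clearly above that of all genes. Helz2, a helicase and nuclear receptor coactivator, passed the test of schedule by time of day at 30 weeks (span 0.66, adjusted p = 0.0427) and at 12 weeks (0.94, adjusted p = 0.0039). It was lower in jet-lagged mice at ZT18, at -0.40 ± 0.10 at 30 weeks (adjusted p = 0.0249) and at -0.59 ± 0.10 at 12 weeks (adjusted p = 0.0020). Parp10, an ADP-ribosyltransferase, also passed the test of schedule by time of day at 30 weeks (span 0.80, adjusted p = 0.0421), with its highest jet-lagged minus steady difference, 0.35, at ZT18. Averaged over the times at 12 weeks, Cd274, the checkpoint ligand PD-L1, was lower in jet-lagged mice (-0.67 ± 0.14, adjusted p = 0.0094), and so was Trim21, an antibody receptor in the cytosol (-0.26 ± 0.06, adjusted p = 0.0282), whereas Ifi27l2a was higher (0.47 ± 0.13, adjusted p = 0.0381). At 30 weeks Isg20, an exonuclease, was lower (-0.35 ± 0.07, adjusted p = 0.0051). With age 0 of the 50 passed in jet-lagged mice, where 7 had an unadjusted p under 0.05, against 20.7% of all genes, and 0 in steady mice, where 8 had, against 9.73%. Of 11 negative regulators of interferon signalling, 0 fell with age and Irf2bp1, a corepressor of IRF2, was higher at 30 weeks in jet-lagged mice (0.27 ± 0.08, adjusted p = 0.0449).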

How the data were processed

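RNA of 32 mouse livers was measured on 1-colour Agilent arrays of design 028005. The intensities were deposited as background-subtracted processed signals by Feature Extraction 11.0.1.1, per the file headers (version 9.1 per the submitters' processing notes), with no scaling between arrays. The authors' deposited table of log2 values (16795 values, 15148 probes) served as an alternative. Control and outlier spots were dropped, and log2 of the processed signal was set relative to the 75th percentile of the array. Spots of a probe were averaged, and 30488 probes well above background (in at least 0.5 of their spots) on all arrays of a group were kept. Genes were named through RefSeq accessions (GRCm38.p6), with the brightest of several probes. Limma 3.58.1 in R 4.3.3 fitted 12 group means, with the slide (8 slides of 4 arrays, each 1 scan session) as a random block (correlation 0.245), and p-values were adjusted by Benjamini and Hochberg's method over 23110 genes. A range or span is the distance between the highest and lowest of 3 fitted means or differences, tested by limma's F test. A ± is a standard error unless marked SD. No array had saturated spots, and the number of mice limits precision. Mouse numbers showed no clear pairing of mice across groups (2 of 16 pairs correlated over 0.1, range -0.43 to 0.22). The check is weak, since groups hold 2 or 3 mice and at ZT2 both pairs of an age give the same value. The fit was tested on simulated data. The 39 genes, the other gene lists and the tests were chosen with earlier results of these data known. In each comparison the genes named are those that passed, or the 4 of largest change where fewer than 4 passed, and values by mouse are given for genes that passed in the most comparisons. Herc6 and Rtp4 were given by mouse after their values were seen, and the windows of Isg15, Irgm1, Ifit1, Rsad2, Cmpk2 and Ifi47 were chosen with results known.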

Additional observations from a re-analysis of the deposited data

Results flagged for a closer look

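Ifi47, the GTPase gene described above, was the gene of the 38 whose jet-lagged minus steady difference changed with the time of day past the test at 12 weeks. The difference was 0.24 at ZT2 and -1.13 at ZT18, a span of 1.37 on the log2 scale (adjusted p = 0.0223, limma). The 3 jet-lagged mice at ZT18 lay below the 3 steady mice, while at ZT2 the schedules overlapped. Leaving out 1 mouse gave adjusted p-values of up to 0.0809. At 30 weeks no gene of the 38 passed this test.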

How the results depend on the processing

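Counts are of genes among the 38 that passed, given here against the reported count. Of the 38, 31 were tested with the authors' table and 37 with the filter of 16 arrays. The share of all genes under each alternative was not counted, and the cause of a changed count was not tested unless stated. Normexp ran on median spot signals (offset 50), since mean signals were not among the columns at hand. For jet-lagged minus steady over the mean of the times at 12 weeks (2 reported), 3 passed with normexp, with the authors' table and without ZT2 mice, 1 with no filter on dim probes, with the slide as a fixed block and with acinar and muscle covariates, and 0 with no slide block and without the 10 acinar-rich arrays. At 30 weeks (3 reported) 4 passed with normexp and the authors' table, 2 with quantile normalization, 1 with the fixed block, and 0 with no filter, no slide block, the covariates, without acinar-rich arrays and without ZT2 mice. At ZT10 and 12 weeks (0) 2, 1 and 3 passed with normexp, quantile normalization and the authors' table. At ZT18 and 12 weeks (2) 3 passed with probes averaged and without ZT2 mice, 0 without acinar-rich arrays, and 1 under the other alternatives but the filter of 16 arrays (3). At ZT2 and 30 weeks (1) 2 passed with normexp, and 0 with no filter, no slide block, the fixed block, averaged probes, covariates and without acinar-rich arrays. At ZT18 and 30 weeks (1) 2 passed with normexp, averaged probes and the authors' table, and 0 with no filter, no slide block, the replicate block, covariates and without ZT2 mice. For time of day in jet-lagged mice at 30 weeks (1), 4, 3, 2 and 5 passed with normexp, quantile normalization, averaged probes and the authors' table, and 0 with no filter, covariates, without acinar-rich arrays and without ZT2 mice. At 12 weeks (9) 3 passed with the fixed block and 0 without ZT2 mice. Without ZT2 mice the tests over 3 times compare ZT10 with ZT18 only, and all 9 genes were highest at ZT2. Such counts, also those for schedule by time of day, therefore cannot be set against the reported ones. Without acinar-rich arrays a single mouse was left at ZT2 and at ZT10 in these groups, so no count is given. In steady mice at 30 weeks (5) 9 passed with the authors' table, 8 with the replicate block, 3 with no filter or covariates, 2 with the fixed block and 1 without acinar-rich arrays. At 12 weeks (7) 15 passed with the authors' table, 4 with the fixed block or covariates and 3 without acinar-rich arrays. For schedule by time of day 2 passed at 30 weeks (0) with the authors' table. At 12 weeks (1) 2 passed without ZT2 mice and 0 with the fixed block, the authors' table, covariates and without acinar-rich arrays. With age in jet-lagged mice (10) 6 passed with no slide block and with the authors' table, 5 with the fixed block, 4 without ZT2 mice and 0 without acinar-rich arrays. In steady mice (0) 2 passed with the authors' table and 1 with quantile normalization or covariates. The authors' table holds fewer genes (12693 tested) and was fitted with no slide block, and leaving out arrays leaves fewer mice.

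With 1 mouse left out, counts ran from 0 to 4 and from 0 to 2 for the mean difference of schedules at 30 and 12 weeks, from 0 to 2, 0 to 0 and 0 to 2 at ZT2, ZT10 and ZT18 at 30 weeks, and from 0 to 1, 0 to 1 and 1 to 4 at 12 weeks. For time of day they ran from 0 to 3 and from 0 to 12 in jet-lagged mice at 30 and 12 weeks, and from 2 to 6 and from 3 to 7 in steady mice. For schedule by time of day they ran from 0 to 1 at each age, for age from 5 to 10 in jet-lagged and from 0 to 2 in steady mice, and for schedule by age from 0 to 1. In jet-lagged mice the lowest counts for time of day at 12 weeks and for age came without mouse 2 of the 12-week ZT2 pair. The counts by measured means without a mouse of that pair were added after seeing the data. Estimates turned sign for Herc6 at 30 weeks without the 1 steady ZT10 mouse (0.0886 over the mean of times, 0.333 at ZT10; over all mice left out in turn, -0.659 to 0.0886 and -2.01 to 0.333) and without acinar-rich arrays (0.127 and 0.309), and for Tgtp1, which was near background, with normexp (0.0057 for the mean at 12 weeks and -0.0704 for schedule by age).

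The mouse number was not used to pair mice (processing above), and the fit with it as a replicate block moved 3 of 17 counts. ZT2 rests on 2 mice a group, and 29099 of 55681 probes had no gene symbol here.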
